A study of Mus musculus with 2 samples.

Results

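Pancreatic beta cells that carried transcripts of Aldh1a3 were examined in single-cell transcriptomes of mouse islets. The cells were selected on their own transcript counts, by the shares of the hormone genes and the presence of Aldh1a3. A cell counted as a beta cell when Ins1 and Ins2, the insulin genes, held at least 30% of its unique molecular identifiers (UMIs, each marking a captured mRNA molecule), with Gcg under 2%, Sst under 1% and Ppy under 5%. It needed at least 1500 UMIs, at least 500 genes and at most 15% mitochondrially encoded UMIs, and at least 1 Aldh1a3 UMI. There were 356 such cells among 12612 beta cells and 21729 kept barcodes. Of these, 339 came from the high-fat diet (HFD) library and 17 from the CD library, a name the labels do not expand.

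Islets came from C57BL/6J mice aged 13 weeks, on HFD as a model of prediabetes or in the CD group, and each group is 1 droplet 3' library. The HFD library held 271527648 UMIs and the CD library 265836346. How many mice were pooled for either library is unstated in the labels. With 1 library a group there was no replicate check, no test between diets or between sets of cells was possible over samples, and every interval below is an exact 95% interval that covers counting error only, as do the limits given for a count of 0.

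Aldh1a3 encodes an aldehyde dehydrogenase that oxidizes retinaldehyde to retinoic acid. In mouse models of diabetes it is known as a marker of beta cells that lose mature features, a process termed dedifferentiation, in which genes for glucose sensing and insulin secretion are turned down and genes of immature or progenitor cells may appear. The gene (ENSMUSG00000015134) lies on the minus strand of GRCm38 at chr7:66390890-66427517.

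The presence of Aldh1a3 defined these cells, so its own levels are given as a description. In HFD, 4.94% of 6856 beta cells held an Aldh1a3 UMI (4.44 to 5.48), against 0.295% of 5756 beta cells in CD (0.172 to 0.472). Summed over beta cells, the level was 2.77 CPM, that is counts scaled by the total UMIs of the cells, in HFD (2.53 to 3.02, from 505 UMIs) and 0.0953 CPM in CD (0.0565 to 0.151, from 18 UMIs). The share of cells depends on depth, whereas CPM does not. Median depth was 23704 UMIs in HFD beta cells and 27076 in CD beta cells, so the library with more Aldh1a3 cells was the shallower. After every cell was thinned to 10000 UMIs, 145 of 6330 HFD beta cells (2.29%) and 1 of 5419 CD beta cells (0.0185%) kept an Aldh1a3 UMI, with 526 and 337 shallower cells left out.

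Most of the HFD cells sat at the lowest value the rule admits. There were 238 cells with 1 Aldh1a3 UMI, 64 with 2, 21 with 3, 8 with 4, 5 with 5, 2 with 6 and 1 with 7, while 6517 HFD beta cells had 0. In CD, 16 cells had 1 UMI, 1 had 2, and 5739 had 0. The UMIs were gathered in few cells: 101 HFD cells with at least 2 UMIs held 52.9% of all Aldh1a3 UMIs of HFD beta cells. The variance of the HFD counts was 2.02 times their mean, and 1.38 times after thinning to 10000 UMIs, where counts spread evenly over cells of equal depth would give about 1. In CD, 13 of the 17 cells had at least 36852 UMIs, and CD beta cells of that depth held an Aldh1a3 UMI in 0.757% (0.404 to 1.29).

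**Figure D1:**
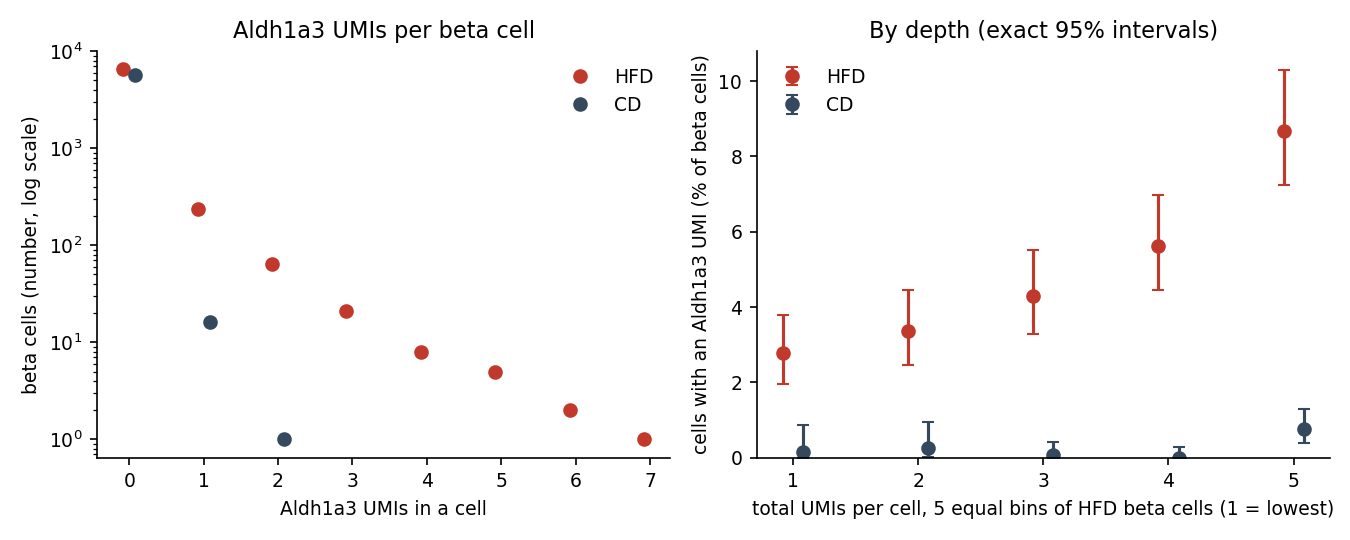
Left, number of beta cells (log scale) by Aldh1a3 UMIs in the cell, HFD and CD; right, percent of beta cells with an Aldh1a3 UMI in 5 bins of total UMIs that hold equal numbers of HFD beta cells, with exact 95% intervals. The HFD share runs between 2.77% in the shallowest bin and 8.67% in the deepest, and the CD share is below 1% in every bin.

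Other cells of the same libraries give the background. Cells led by glucagon, an islet type in which the gene is not known as a marker, held an Aldh1a3 UMI in 0.352% of 1989 HFD cells (0.142 to 0.724) at a median of 7676 UMIs, and in 0.386% of 1296 CD cells (0.125 to 0.898) at 9505 UMIs. Their level was 0.439 CPM in HFD and 0.373 CPM in CD, so HFD beta cells stood above it and CD beta cells below it. The CD beta share of 0.295% was thus no higher than that of the shallower glucagon-led cells, and it is not read as expression of the gene. HFD macrophages held a UMI in 0 of 218 cells at a median of 4210 UMIs; by a floor of 3 counts this allows a share of cells with a UMI of up to 1.38%. Barcodes with 10 to 100 UMIs, which hold RNA free in the suspension, had 4 Aldh1a3 UMIs in HFD, or 2.48 CPM (0.676 to 6.36), and 0 in CD, which by the same floor of 3 counts allows up to 2.03 CPM. The HFD interval includes the 2.77 CPM of HFD beta cells, and the part of free RNA in either level was not tested.

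Aldh1a3 was not limited to cells of the rule. Cells led by somatostatin had 3.62 CPM in HFD, from 10 UMIs in 543 cells, and 3.86 CPM in CD, from 13 UMIs in 482 cells. Cells with at least 30% insulin UMIs and a second hormone over its limit had 2.66 CPM in HFD, with a UMI in 35 of 612 cells, and 0.939 CPM in CD, with a UMI in 10 of 809 cells. At 5000 UMIs per cell the shares in HFD were 1.1% of 6661 beta cells, 1.01% of 594 cells with a second hormone and 2.13% of 235 cells led by somatostatin.

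The insulin share of the 339 HFD cells was bounded by the rule and is given as a description. It had a median of 62.9%, with a lowest value of 32.8% and a highest of 71.1%, and 2 cells lay between the limit of 30% and 35%. The beta cell transcription factor Nkx6-1 was seen in 95.6% of them and Pdx1 in 63.4%, against 94.9% and 66.3% of matched beta cells. No cell shared its barcode with a kept cell of the other library, and 26 kept barcodes were shared in all.

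Each HFD Aldh1a3 cell was set against the 5 HFD beta cells with 0 Aldh1a3 UMIs that were nearest in total UMIs, 1695 cells in all. The 339 cells had a median of 29048 UMIs, 3285 genes and 3.53% mitochondrial UMIs, and the matched cells 29062 UMIs, 3188 genes and 3.6%. Doublet calls took 32 Aldh1a3 cells (9.44%; 6.55 to 13.1) and 136 matched cells (8.02%; 6.77 to 9.42), and were kept in. UMIs were summed over each set, and a ratio of CPM is Aldh1a3 cells over matched cells. Over 7596 measured genes the median ratio was 0.04 on the log2 scale, with 4777 above a ratio of 1 and 2819 below. At least 1.5-fold higher were 33 of them (0.434%) and at least 1.5-fold lower were 12 (0.158%), so differences were few and mostly small.

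The HFD beta cells fell into 11 clusters when Aldh1a3 was left out of the clustering, and Aldh1a3 cells were found in 10 of them. The share was 3.02% of 1755 cells in cluster 1, 4.82% of 1618 in cluster 2, 6.3% of 1064 in cluster 3, which is led by Pdyn, and 3.51% of 1026 in cluster 4. It was highest in cluster 5, with 66 of 613 cells (10.8%; 8.43 to 13.5), and in cluster 7, with 23 of 204 cells (11.3%; 7.28 to 16.4). Cluster 7 is led by mitotic genes such as Birc5 and Top2a, at a median of 37424 UMIs. Cluster 5 is led by Rbp4 and Pyy, genes of delta and PP cells, and 36.2% of its cells were doublet calls, against 1.22% to 3.21% in clusters 1 to 4. After thinning to 10000 UMIs the shares were 5.86% in cluster 5, 4.15% in cluster 7 and 0.96% in cluster 1. Without cluster 5 the HFD share over beta cells was 4.37% (3.88 to 4.91), and over clusters 1 to 4 alone it was 4.28% (3.76 to 4.85).

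**Figure D2:**
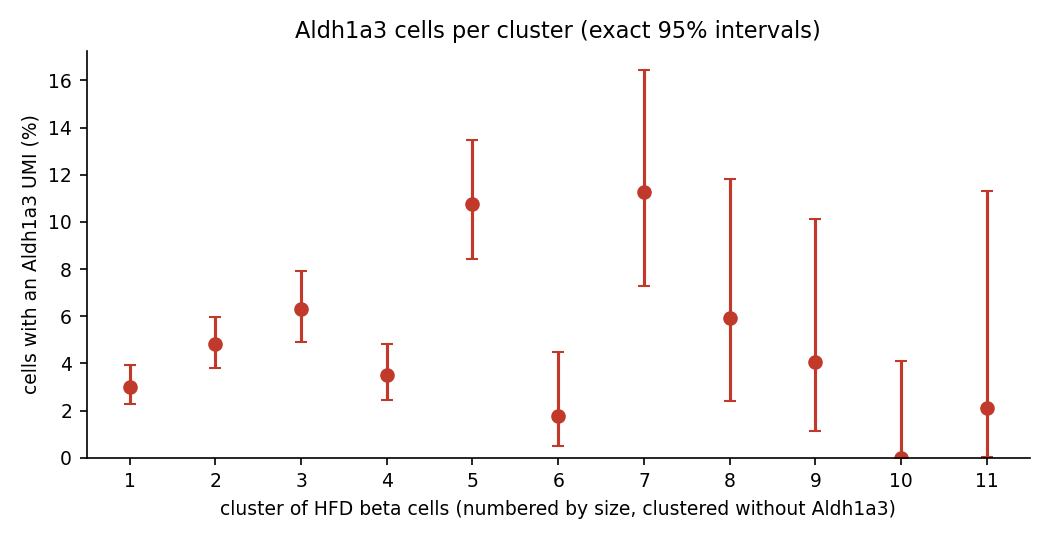
Percent of HFD beta cells with an Aldh1a3 UMI in each of 11 clusters numbered by size, with exact 95% intervals. Clusters 5 and 7 stand at 10.8% and 11.3%, and cluster 1, the largest, at 3.02%.

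Because cluster membership moves with Aldh1a3, each ratio was also taken against cells matched on total UMIs inside the same cluster. There, 12 of 7619 genes (0.158%) were at least 1.5-fold higher and 13 (0.171%) at least 1.5-fold lower. This second ratio is called the within-cluster ratio below.

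Several genes for glucose sensing were lower in Aldh1a3 cells. Slc2a2, the glucose transporter GLUT2, had 178 CPM in Aldh1a3 cells and 225 CPM in matched cells, a log2 ratio of -0.34 (-0.41 to -0.27). G6pc2, the islet glucose-6-phosphatase that opposes glucokinase, had 493 CPM against 595 CPM (-0.27; -0.31 to -0.23). Trpm5, a calcium-activated cation channel, had 29.95 CPM in Aldh1a3 cells and 42.2 CPM in matched cells (-0.50; -0.67 to -0.33). These genes belong to the sensing of glucose and the electrical response of the cell. Of the granule genes, most lay above a ratio of 1 (20 of 23 measured, beside 4777 of 7596 over all genes). Slc30a8 and Sytl4, chosen after their values were seen, lay below. Slc30a8, the zinc transporter of insulin granules, had 296 CPM in Aldh1a3 cells and 348 CPM in matched cells (-0.23; -0.29 to -0.18). Sytl4, or granuphilin, which docks granules at the membrane, had 59.3 CPM against 73.9 CPM (-0.32; -0.44 to -0.20). None of these 5 genes reached 1.5-fold.

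Mafa, the transcription factor of mature beta cells that acts on the insulin promoter, had 88.2 CPM in Aldh1a3 cells and 115 CPM in matched cells (-0.38; -0.48 to -0.28). Neurod1, another activator of insulin, stood at -0.12 (-0.22 to -0.02). The other lineage factors were close to the matched cells: the log2 ratio was 0.04 for Nkx6-1, 0.01 for Pdx1, 0.05 for Nkx2-2, -0.06 for Pax6 and -0.01 for Foxa2. Ucn3, a peptide of mature beta cells, had 172 CPM in Aldh1a3 cells and 174 CPM in matched cells, a log2 ratio of -0.02 (-0.09 to 0.05). Iapp, which encodes islet amyloid polypeptide, stood at 0.08, Ins1 at -0.06 and Ins2 at -0.02, with both insulin genes bounded by the rule. Of 27 measured genes of a beta identity list of 31, 19 lay below a ratio of 1 and 8 above, with a median of -0.06, beside 2819 below and 4777 above among all measured genes. With TMM factors 22 of the 27 lay below 1, and none of the 27 differed by 1.5-fold.

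The lower levels were spread over the cells. Summed per cell without Ins1, Ins2 and Iapp, the beta identity genes had a median of 2807 CPM in Aldh1a3 cells and 3072 CPM in matched cells. Of the 339 Aldh1a3 cells, 67% were below the matched median (61.7 to 72). Abundant genes weigh most in this sum, so it does not show how many genes were lower. Over the measured genes of the list the median log2 ratio was -0.06. For single genes the share below the matched median was 65.5% for Slc2a2 (60.2 to 70.5), 63.7% for G6pc2 (58.4 to 68.8) and 64.3% for Mafa (59 to 69.4). It was 64.3% for Slc30a8 and 62.5% for Trpm5. Other beta cell genes did not go this way: the share was 46.6% for Ucn3 (41.2 to 52.1), 43.95% for Nkx6-1 (38.6 to 49.4) and 38.05% for Iapp (32.9 to 43.5). The middle of the range still overlapped widely: the quartiles of Slc2a2 were 82.1 and 250 CPM in Aldh1a3 cells and 124 and 305 CPM in matched cells.

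**Figure D3:**
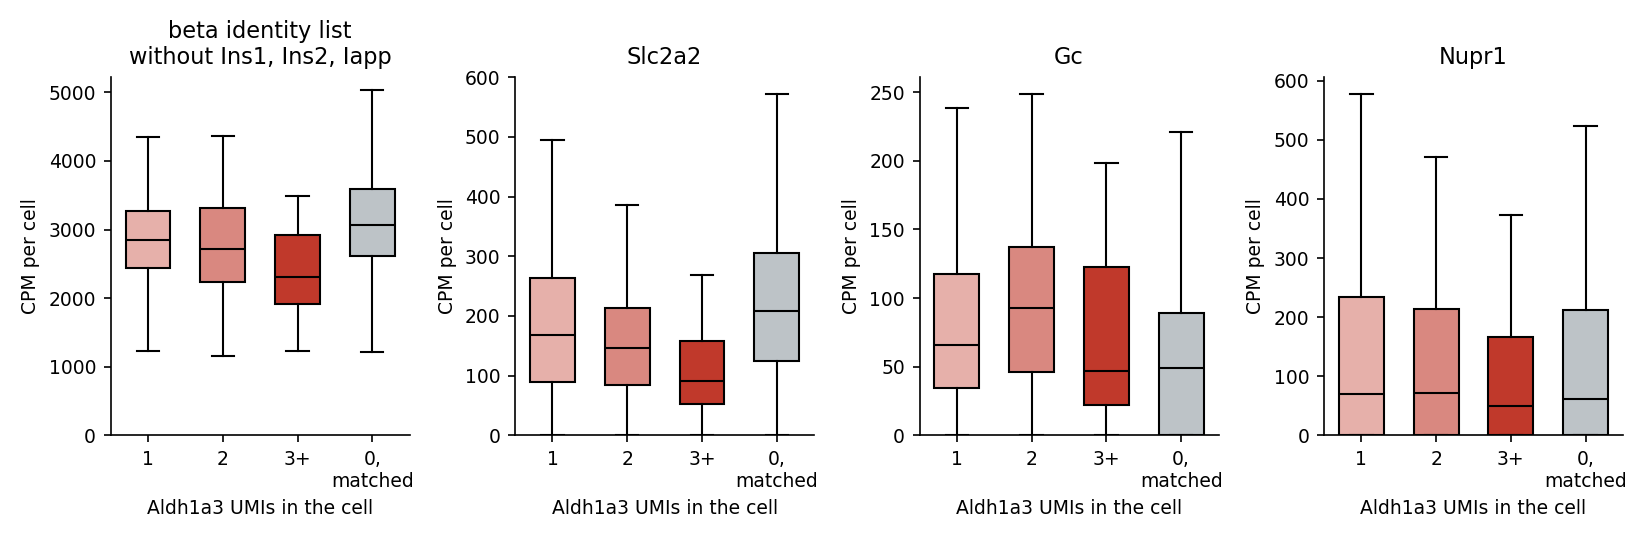
CPM per cell (boxes, quartiles and median; whiskers, the farthest cell within 1.5 box lengths; cells beyond not drawn) in HFD beta cells with 1, 2 or at least 3 Aldh1a3 UMIs and in the 1695 matched cells with 0. The beta identity sum has medians of 2853, 2717 and 2302 CPM at 1, 2 and at least 3 UMIs, and 3072 CPM in matched cells, and the boxes overlap in every panel.

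Of these genes, Slc2a2 stood lower at each step up in Aldh1a3 UMIs, and G6pc2 was lower again only at 3 or more. Set against their own matched cells, the 238 cells with 1 UMI had a log2 ratio of -0.23 for Slc2a2, the 64 cells with 2 UMIs -0.48, and the 37 cells with at least 3 UMIs -0.80 (-1.03 to -0.58). Slc2a2 had 191, 167 and 125 CPM in these 3 sets. For G6pc2 the log2 ratio was -0.23 at 1 UMI, -0.23 at 2 UMIs and -0.54 at 3 or more. Mafa showed no such order, with -0.38, -0.39 and -0.35. The cells with at least 3 UMIs were deeper, with a median of 37080 UMIs, and 6 of the 37 were doublet calls. All 3 sets were matched on total UMIs and not within clusters. Cluster 5 held 66 of the 339 Aldh1a3 cells and 27 of the 101 with at least 2 UMIs. The part of the clusters in these steps was not tested.

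**Figure D4:**
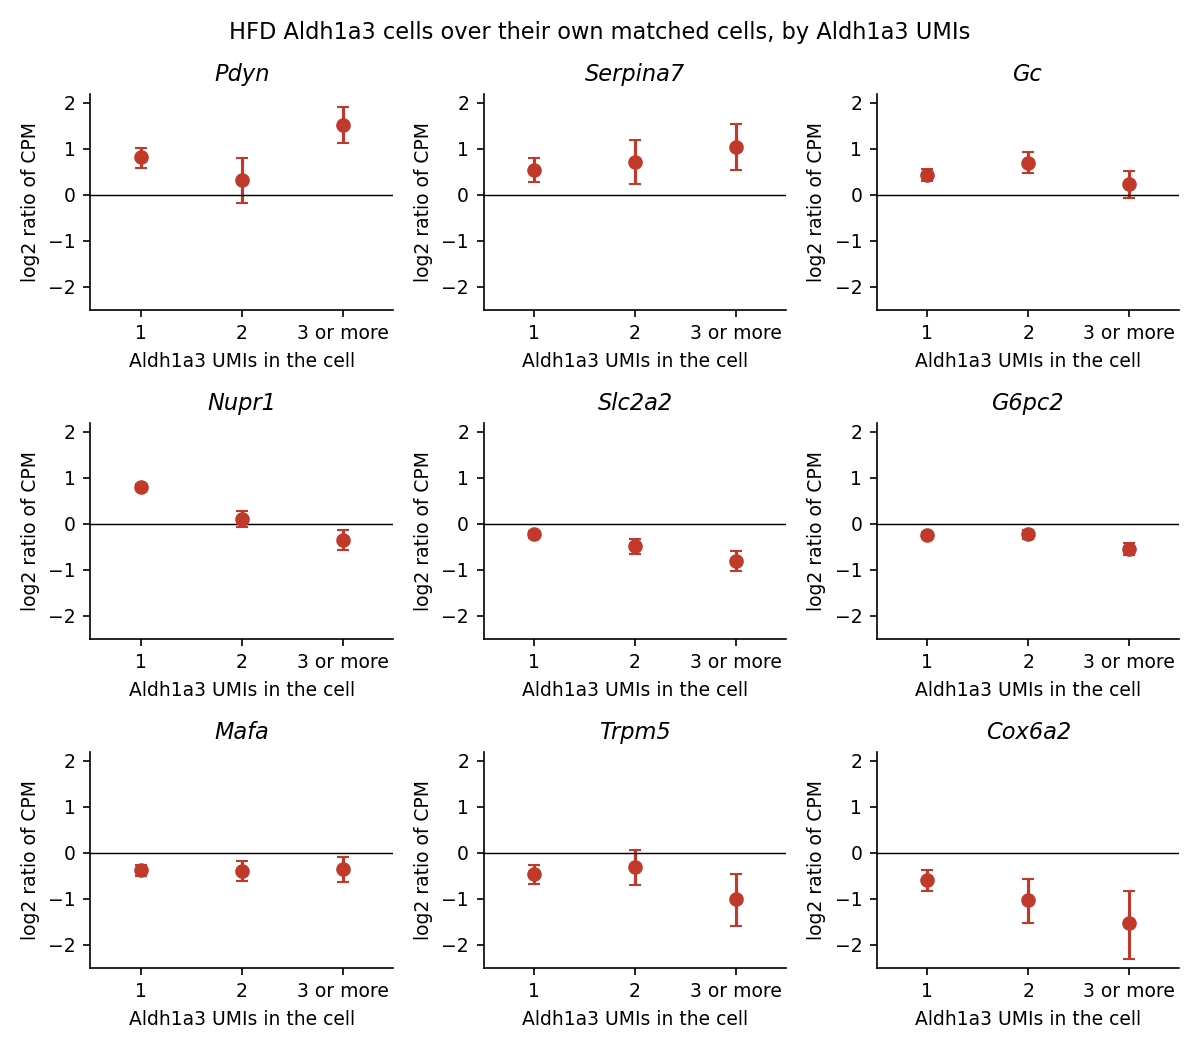
Log2 ratio of CPM for 9 genes, HFD beta cells with 1, 2 or at least 3 Aldh1a3 UMIs over their own matched cells with 0, with exact 95% intervals. Slc2a2 reaches -0.80 and Cox6a2 -1.53 at 3 or more UMIs, whereas Mafa stays between -0.39 and -0.35 and Nupr1 lies above 0 at 1 UMI and below 0 at 3 or more.

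Other genes at the low end of the ranking were Cox6a2, Tmsb15b2, Tmem215, T2, Lifr and Tcim. Cox6a2, the muscle-type form of a cytochrome c oxidase subunit, had 22.0 CPM in Aldh1a3 cells and 37.5 CPM in matched cells (-0.77; -0.96 to -0.58), and was seen in 33% against 47.6% of cells. Its log2 ratio was -0.60 at 1 Aldh1a3 UMI, -1.03 at 2 and -1.53 at 3 or more (-2.31 to -0.84). Tmsb15b2, a thymosin gene with close copies between which reads could have been divided, had 15.6 CPM in Aldh1a3 cells and 25.1 CPM in matched cells (-0.68). Tmem215 stood at -0.42, T2 at -0.51, Lifr, a receptor subunit for leukemia inhibitory factor, at -0.41 and Tcim at -0.61. Within the 6 clusters that held at least 20 Aldh1a3 cells, Cox6a2, Tmsb15b2, Trpm5, T2 and Mafa lay below a ratio of 1 in all 6. Slc2a2, G6pc2, Tmem215, Lifr and Tcim did so in 5 of 6. Some intervals in single clusters included a ratio of 1, such as -0.15 (-0.36 to 0.07) for Mafa and -0.09 (-0.60 to 0.38) for T2 in cluster 1. As the ranking used these same cells, the signs by cluster are a description.

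Apoe and Hbb-bs also ranked low, from a few cells. The 5 cells with the most UMIs held 57.6% of all Apoe UMIs and 68.9% of all Hbb-bs UMIs of the matched cells. Apoe, an apolipoprotein of macrophages and other cells, had 13.7 CPM in Aldh1a3 cells and 27 CPM in matched cells, and its log2 ratio of -0.98 became 0.57 with doublet calls removed. Hbb-bs, a beta globin with a near-identical neighbour, had 4.71 CPM against 12.7 CPM, and its log2 ratio of -1.43 was -0.23 (-0.68 to 0.19) within clusters.

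Among genes that were higher, several encode secreted proteins. Gc, the vitamin D-binding protein, had 83.7 CPM in Aldh1a3 cells and 61.1 CPM in matched cells, a log2 ratio of 0.46 (0.35 to 0.56), with a UMI in 84.4% and 74.1% of cells. Serpina7, the thyroxine-binding globulin, had 22.7 CPM in Aldh1a3 cells and 14.3 CPM in matched cells (0.66; 0.46 to 0.87). Pdyn, the dynorphin precursor, had 33.2 CPM against 18.1 CPM (0.87; 0.70 to 1.05). All 3 kept the sign in 20 alternative settings. Spp1, or osteopontin, had 57.2 CPM in Aldh1a3 cells and 41.2 CPM in matched cells (0.48; 0.35 to 0.60), with 35.4% of its UMIs in 5 of the Aldh1a3 cells.

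The within-cluster log2 ratio was 0.73 for Pdyn, 0.76 for Serpina7, 0.48 for Gc and 0.42 for Spp1. Pdyn and Gc lay above a ratio of 1 in all 6 clusters with at least 20 Aldh1a3 cells, and Serpina7 and Spp1 in 5 of 6. Some intervals in single clusters included a ratio of 1, such as 0.12 (-0.16 to 0.38) for Gc in cluster 2 and 0.35 (-0.38 to 1.03) for Pdyn in cluster 7. The genes were ranked on these same cells, so the signs by cluster are a description. At 1, 2 and at least 3 Aldh1a3 UMIs the log2 ratio of Serpina7 was 0.55, 0.72 and 1.04, and that of Pdyn 0.81, 0.32 and 1.52. For Gc it was 0.42, 0.70 and 0.23, so it showed no order with Aldh1a3 UMIs. Rasgrf2, an exchange factor that activates Ras, had 11.8 CPM in Aldh1a3 cells and 7.42 CPM in matched cells (0.67), and Cyp4f13, a cytochrome P450, 6.75 CPM against 3.95 CPM (0.77). Their within-cluster log2 ratios were 0.70 and 0.70.

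**Figure D5:**
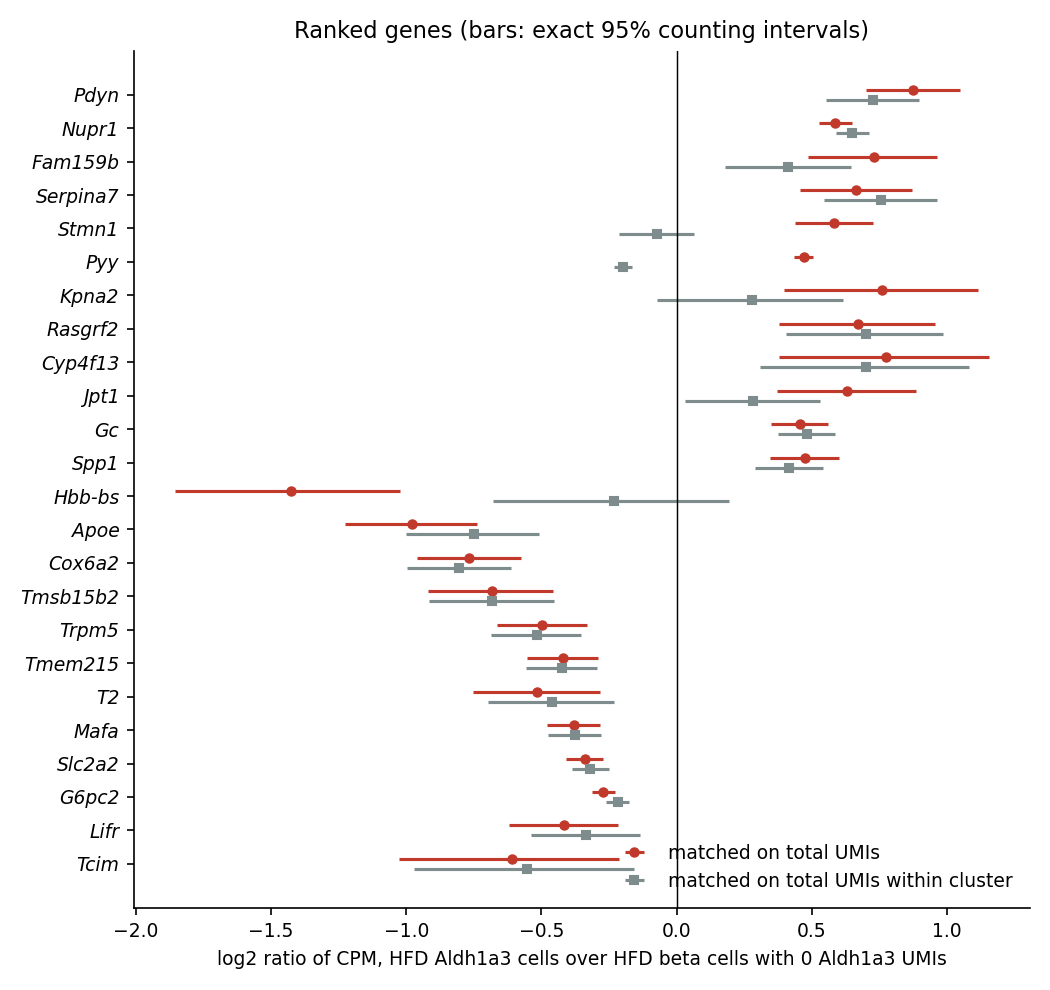
Log2 ratio of CPM for the 12 highest-ranked and 12 lowest-ranked genes, HFD Aldh1a3 cells over HFD beta cells with 0 Aldh1a3 UMIs, matched on total UMIs (circles) or on total UMIs within the same cluster (squares), with exact 95% intervals. Pdyn, Serpina7, Gc, Slc2a2, G6pc2 and Mafa lie at similar places on both scales, whereas Stmn1, Pyy and Hbb-bs move to or across 0 within clusters.

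Promoters were compared for genes that differed together. The RefSeq promoter set used here does not cover every gene and has 0 entries for Aldh1a3. It holds a promoter of 250 bases before to 50 after the start (GRCm38.p6) for 18 of the 24 ranked genes, 10 higher and 8 lower. Only the first listed promoter of each gene was searched. Pdyn, Serpina7, Pyy, Spp1, Tmem215, G6pc2 and Lifr have 2 and Apoe has 3, and the rest were not searched. The shares over all promoters of the set count promoters, so a gene can stand in them more than once. On either strand, the core letters of 5 motifs were searched first: CTAATG of homeodomain factors, TGCTGAC of MAF factors, CAGATG of E boxes, GTAAACA of forkhead factors and the full palindrome of HNF1 factors. In the searched promoters they were found in 0 of the 10 higher genes, and in the 8 lower genes only CAGATG in Tmem215 and GTAAACA in Tmsb15b2. GTTAAT, the start of the HNF1 motif, and TATAAA were added after the values were seen. GTTAAT was in 3 of 10 higher genes (Gc, Serpina7 and Spp1) and 1 of 8 lower genes (Tmsb15b2), and in 7.1% of the 32851 promoters of the set. TATAAA was in 3 of 10 higher genes (Serpina7, Spp1 and Jpt1) and 0 of 8 lower genes, and in 13.6% of the promoters of the set. The promoters of the 3 secreted-protein genes that share GTTAAT are printed 5′ to 3′ beside that of Slc2a2, in which none of the 7 was found; capitals mark GTTAAT and TATAAA in either orientation, and a match is a description of the letters only. They lie at chr5:89457849-89458148, minus strand for Gc, chrX:139085187-139085486, minus strand for Serpina7, chr5:104434861-104435160, plus strand for Spp1 and chr3:28697653-28697952, plus strand for Slc2a2.
Gc: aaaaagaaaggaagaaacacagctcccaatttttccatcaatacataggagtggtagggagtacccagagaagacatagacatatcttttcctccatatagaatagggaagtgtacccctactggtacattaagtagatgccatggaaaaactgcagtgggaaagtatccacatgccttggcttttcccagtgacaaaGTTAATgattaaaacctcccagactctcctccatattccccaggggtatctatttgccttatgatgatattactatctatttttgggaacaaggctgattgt
Serpina7: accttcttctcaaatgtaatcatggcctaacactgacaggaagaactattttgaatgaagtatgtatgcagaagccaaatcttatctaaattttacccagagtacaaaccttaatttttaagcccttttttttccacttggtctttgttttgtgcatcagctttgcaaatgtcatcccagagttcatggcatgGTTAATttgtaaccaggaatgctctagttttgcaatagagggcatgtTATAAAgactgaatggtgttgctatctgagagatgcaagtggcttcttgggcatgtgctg
Spp1: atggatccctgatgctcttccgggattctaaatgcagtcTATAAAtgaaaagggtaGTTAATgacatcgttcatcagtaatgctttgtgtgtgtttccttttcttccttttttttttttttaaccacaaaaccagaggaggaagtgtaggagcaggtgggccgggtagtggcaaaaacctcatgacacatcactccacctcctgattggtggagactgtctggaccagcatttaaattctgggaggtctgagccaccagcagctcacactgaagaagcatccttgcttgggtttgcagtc
Slc2a2: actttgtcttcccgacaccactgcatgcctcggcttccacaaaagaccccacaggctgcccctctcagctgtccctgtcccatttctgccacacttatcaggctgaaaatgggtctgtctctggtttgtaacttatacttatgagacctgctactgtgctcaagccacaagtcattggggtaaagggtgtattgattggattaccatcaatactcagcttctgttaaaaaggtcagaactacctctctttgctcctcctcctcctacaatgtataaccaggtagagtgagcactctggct

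Nupr1, a nuclear protein induced by cell stress, had 248 CPM in Aldh1a3 cells and 165 CPM in matched cells, a log2 ratio of 0.59 (0.53 to 0.65). That difference came from few cells: 5 of the 339 Aldh1a3 cells held 35.2% of its UMIs, and the median per cell was 64.5 CPM in Aldh1a3 cells and 61.5 CPM in matched cells. At 1, 2 and at least 3 Aldh1a3 UMIs its log2 ratio was 0.80, 0.11 and -0.35. The other genes of the integrated stress response, which slows translation under amino acid or protein folding stress, lay near 0: Atf4 at -0.08, Ddit3 at 0.16 and Asns at 0.15. Of the 16 measured genes of that list 9 lay above a ratio of 1, with a median of 0.04, and with TMM factors 8 did so, with a median of -0.02. Without those factors 4777 of all 7596 measured genes lay above 1, with a median of 0.04.

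Endoplasmic reticulum and granule genes were close to matched cells, and the counts on either side of 1 depended on the scaling. Of 26 measured genes of the unfolded protein response, 23 lay above a ratio of 1, with a median log2 ratio of 0.06. Over all 7596 measured genes 4777 lay above 1, with a median of 0.04. With TMM factors, which centre most genes near 0, 13 of the 26 lay above 1. Fkbp11, a folding enzyme of the secretory pathway, had 78.1 CPM in Aldh1a3 cells and 61 CPM in matched cells (0.36; 0.25 to 0.46), and its log2 ratio was 0.22, 0.36 and 0.87 at 1, 2 and at least 3 Aldh1a3 UMIs. Hspa5, the main chaperone of that compartment, stood at 0.03. Of 23 measured granule and exocytosis genes, 20 lay above 1 (median 0.08), among them Chgb, a granin, with 409 CPM in Aldh1a3 cells and 342 CPM in matched cells (0.26), while Slc30a8 and Sytl4 lay below. Cholesterol and fatty acid synthesis genes lay above 1 for 20 of 23 (median 0.11), and mitochondrially encoded genes below 1 for 11 of 13 (median -0.06). With TMM factors these counts were 16 of 23 granule genes and 15 of 23 synthesis genes above 1, and 12 of 13 mitochondrially encoded genes below it. None of these 4 lists held a gene past 1.5-fold.

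Few genes of a dedifferentiation and immaturity list could be measured. Of 20 genes, 6 had enough UMIs, all 6 lay above a ratio of 1 (5 with TMM factors) with a median log2 ratio of 0.46, and only Serpina7 passed 1.5-fold. Among all 7596 measured genes 4777 lay above 1 and 0.434% were at least 1.5-fold higher. The others of the 6 were Gc, Pyy, a gut and islet peptide, Cd81, a tetraspanin, Rbp4, the retinol-binding protein of blood, and Sox4, a transcription factor of islet development that stood at 0.03. Serpina7, Gc and Pyy are also ranked higher genes of this comparison, so the list median is not separate from that ranking. The list was chosen with earlier results of these data known. Within clusters 4 of the 6 lay above 1 and the median was 0.14. Pyy was 799 CPM in Aldh1a3 cells and 576 CPM in matched cells (0.47), but its within-cluster log2 ratio was -0.20, and 5 cells held 43% of its UMIs. Neurog3, the factor that starts endocrine development, had 9 UMIs in Aldh1a3 cells (0.8 CPM) and 26 in matched cells (0.465 CPM), a log2 ratio of 0.78 (-0.50 to 1.92). Gast, which encodes gastrin and was below the count limit, had 26 UMIs (2.31 CPM) in Aldh1a3 cells and 59 UMIs (1.05 CPM) in matched cells (1.13; 0.41 to 1.82). Of 20 genes that beta cells normally keep silent, termed disallowed genes, 0 had enough UMIs, and together they had 8.44 CPM in Aldh1a3 cells and 10.5 CPM in matched cells.

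Little of the rest of the retinoid pathway could be measured. Of 33 genes, 14 were at 0 in Aldh1a3 cells and 7 had enough UMIs. Of these 7, 6 lay above a ratio of 1 and 1 below, with a median log2 ratio of 0.09, and 0 reached 1.5-fold. Beside this, 4777 of all 7596 measured genes lay above 1, with a median of 0.04, and 0.434% were at least 1.5-fold higher. Ttr, the carrier of retinol-binding protein, had 1408 CPM in Aldh1a3 cells and 1302 CPM in matched cells (0.11; 0.09 to 0.14). Rbp4 stood at 0.16 (-0.02 to 0.33), but at -0.46 (-0.63 to -0.29) within clusters. Among the others, Rdh14, a retinol dehydrogenase, at 0.09, Dhrs4, a retinal reductase, at -0.02, Adh1, an alcohol dehydrogenase, at 0.07, Adh5 at 0.06 and Rxrb, a retinoid receptor, at 0.13. The related enzymes Aldh1a1, Aldh1a2 and Aldh1a7 had 1, 0 and 0 UMIs in Aldh1a3 cells and 0 in matched cells. Rarb and the retinoic acid hydroxylase Cyp26a1 were at 0 in Aldh1a3 cells, with 0 and 1 UMIs in matched cells. Of 8 measured other aldehyde dehydrogenases 5 lay above a ratio of 1 and 3 below, with a median of 0.05, close to the median over all genes. With TMM factors 4 lay on either side. None passed 1.5-fold.

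Cell cycle genes were higher when depth alone was matched. Of 14 measured genes 13 lay above a ratio of 1, with a median log2 ratio of 0.63, and 7 passed 1.5-fold. Of all 7596 measured genes 4777 lay above 1 and 33 (0.434%) were at least 1.5-fold higher. Mki67, a marker of dividing cells, had 12.7 CPM in Aldh1a3 cells and 6.61 CPM in matched cells (0.94; 0.65 to 1.22), and a UMI in 8.55% of 339 cells (5.8 to 12.1) against 5.37% of 1695 (4.34 to 6.55). Within clusters 6 of 16 measured genes of the list lay above 1, 0 passed 1.5-fold, and the median was -0.06. Without cluster 7 the median was -0.12. Stmn1, which regulates microtubules, went the same way, with 0.58 against depth-matched cells and -0.07 within clusters. Kpna2, a nuclear import factor, stood at 0.76 and at 0.28 within clusters, and Jpt1 at 0.63 and 0.28. Fam159b, a leading gene of cluster 5, stood at 0.73 and 0.41.

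Markers of other cell types differed in the same comparison, and their part in the results was not tested beyond the within-cluster ratios. The summed delta cell markers had 412 CPM in Aldh1a3 cells, 329 CPM in depth-matched cells and 535 CPM in cells matched within clusters. The PP cell markers had 1707, 1421 and 2299 CPM in the same order, and the alpha cell markers 3672, 3441 and 3624 CPM. Endothelial markers had 8.98, 33.8 and 8.67 CPM, with Cldn5 at 0 in Aldh1a3 cells, and macrophage markers 51.3, 53.4 and 55.6 CPM. Of these, C1qa alone gave 43.8, 37.4 and 38.65 CPM, and the other 9 together 7.46, 16.0 and 16.9 CPM. Some genes of antigen presentation by immune cells were also lower, and are named after their values were seen. Cd74, the invariant chain of class II molecules, had 4.89 CPM in Aldh1a3 cells and 18.0 CPM in matched cells (-1.88; -2.30 to -1.49), with 61.5% of the matched UMIs in 5 cells. The class II genes H2-Eb1 and H2-Ab1 stood at -2.04 and -1.53, with 59.9% and 59.6% of the matched UMIs in 5 cells. Within clusters these 3 genes stood at -1.68, -2.06 and -1.42. They had a UMI in 6.49%, 4.13% and 3.54% of Aldh1a3 cells and in 6.61%, 4.07% and 3.95% of matched cells. On a list of antigen presentation and interferon response genes, 7 of 11 measured genes lay above a ratio of 1 and 4 below. Mesenchymal markers had 16.1, 10.4 and 8.96 CPM, led by the pericyte gene Rgs5, which had 86 UMIs in 1.77% of Aldh1a3 cells with 98.8% of them in 5 cells. Slc2a2, G6pc2 and Mafa stood at -0.32, -0.22 and -0.38 within clusters, where the endothelial sums were close and the delta, PP, macrophage and mesenchymal sums still differed as given.

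Genes that mark other sets of beta cells were seen in the following shares of cells, and the differences were not tested. Cd79a had a UMI in 23.3% of Aldh1a3 cells (18.9 to 28.2) and 19.4% of matched cells (17.5 to 21.3). Ifit3, an interferon-induced gene, had one in 2.06% (0.834 to 4.21) and 1.77% (1.2 to 2.52). Top2a, of dividing cells, had one in 6.49% of Aldh1a3 cells (4.11 to 9.66), 4.25% of depth-matched cells (3.34 to 5.32) and 6.55% of cells matched within clusters (5.42 to 7.83). For Mki67 the share within clusters was 7.67% (6.45 to 9.04), beside the 8.55% of Aldh1a3 cells and 5.37% of depth-matched cells given above. The intervals of Aldh1a3 and matched cells overlapped for each of these 4 genes.

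The levels were set beside those of 1695 CD beta cells with 0 Aldh1a3 UMIs, at the same total UMIs. The matched HFD cells stand in both contrasts, so the 3 levels are given side by side. Pdyn had 33.2 CPM in HFD Aldh1a3 cells, 18.1 CPM in matched HFD cells and 2.99 CPM in CD cells. Serpina7 had 22.7, 14.3 and 3.06 CPM in the same order, and Gc 83.7, 61.1 and 12.9 CPM. For these 3 genes the Aldh1a3 cells were the farthest from the CD level. The same held for Nupr1 (248, 165 and 70.6 CPM), Rasgrf2 (11.8, 7.42 and 1.76 CPM) and Spp1 (57.2, 41.2 and 8.09 CPM). The CD level instead lay above that of matched HFD cells for the other ranked higher genes. Fam159b had 17.3, 10.5 and 22.3 CPM, Stmn1 45.8, 30.55 and 48.5 CPM, and Pyy 799, 576 and 703 CPM. Kpna2 had 7.9, 4.7 and 7.4 CPM, Cyp4f13 6.75, 3.95 and 6.35 CPM, and Jpt1 14.75, 9.53 and 12.9 CPM.

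Genes at the low end also did not share 1 order. Trpm5 had 29.95 CPM in HFD Aldh1a3 cells, 42.2 CPM in matched HFD cells and 75.4 CPM in CD cells, and Slc2a2 178, 225 and 243 CPM. Mafa had 88.2, 115 and 74.3 CPM, G6pc2 493, 595 and 324 CPM, and Cox6a2 22.0, 37.5 and 8.96 CPM. For Trpm5 and Slc2a2 the Aldh1a3 cells were the farthest from the CD cells, whereas for Mafa, G6pc2 and Cox6a2 they lay between the matched HFD cells and the CD cells.

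The 17 CD Aldh1a3 cells were deep, with a median of 67659 UMIs, and 5 of them were doublet calls, against 13 of the 85 CD cells matched to them. Slc2a2 had 249 CPM in the CD Aldh1a3 cells and 238 CPM in their matched cells (log2 ratio 0.07; -0.13 to 0.26), and Mafa 58.7 CPM against 71.9 CPM (-0.29; -0.71 to 0.10). Pdyn and Serpina7 had 5 and 2 UMIs in these 17 cells, too few for a comparison.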

How the data were processed

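The deposited files hold raw UMI counts per gene and barcode for every barcode, with no normalization, per the file headers and values. Per the submitters' processing notes, Cell Ranger 6.0.1 and mm10 were used; per the file headers the matrices name software version 3.0.2. No label or header names an annotation release, and 99.6% of 31053 gene identifiers matched GENCODE M21, which gave positions. The members and gene lists were chosen with earlier results of these data known.

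Doublets were scored with scrublet in scanpy 1.11.5 (Python 3.11.15), and the highest scores were called at 0.8% per 1000 barcodes and kept in, with removal as an alternative. HFD beta cells were clustered without Aldh1a3 (1000 genes, 15 components, 15 neighbours, Leiden resolution 0.6, igraph 0.11.9) and clusters were left unnamed. Thinning drew 10000 UMIs per cell (5000 across cell classes). Each Aldh1a3 cell took its 5 nearest cells on log total UMIs, without replacement, and counts were summed and divided by total UMIs. A gene was measured if its mean level implied at least 50 UMIs in the Aldh1a3 cells. Ratios have exact conditional binomial intervals and shares Clopper-Pearson intervals. Cells vary more than counting error, so these are too narrow as intervals for a diet. Those of the ratios are too narrow for a set of cells as well, and the ranking by interval bound carries the same limit. No p-value was computed.

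The 24 ranked genes are the 12 with the highest and the 12 with the lowest interval bound nearest a ratio of 1, among measured genes seen in at least 10% of cells of the set where they are higher, without hormone, Aldh1a3, ribosomal protein, mitochondrially encoded and unnamed genes. From 32 lists, the measured genes with the most UMIs and with the bound farthest from 1, and all measured retinoid genes, were added. Other list genes named, such as Neurog3, Gast, Atf4, Hspa5, Slc30a8, Sytl4, Ucn3 and the lineage factors, were chosen after their values were seen. TMM factors came from edgeR 4.0.16 in R 4.3.3. The calculation was tested on simulated sums that held counting error only. As they had no spread between cells, they do not bear on genes whose UMIs lie in few cells.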

Additional observations from a re-analysis of the deposited data

Results flagged for a closer look

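Stmn1 and 6 cell division genes differed in sign between the diets. In CD Stmn1 had 27 UMIs (26 CPM) in the 17 Aldh1a3 cells and 264 UMIs (50.9 CPM) in their 85 matched cells, a log2 ratio of -0.971 (-1.60 to -0.40), whereas in HFD the log2 ratio was 0.583 (0.44 to 0.73). The HFD value was -0.07 within clusters, and 46.2% of its UMIs in HFD Aldh1a3 cells lay in 5 cells. The cell division genes had 1 to 4 UMIs each in the 17 CD Aldh1a3 cells. Their CD log2 ratios were -3.985 for Top2a (-9.31 to -1.47), -3.205 for Birc5 (-8.54 to -0.66), -2.647 for Cenpf (-4.54 to -1.25), -2.564 for Ube2c (-4.46 to -1.17), -2.108 for Prc1 (-5.20 to -0.17) and -1.954 for Mki67 (-4.27 to -0.34). In HFD the same genes stood at 0.86, 0.68, 0.86, 0.77, 0.67 and 0.94 against depth-matched cells and at 0.11, 0.04, -0.05, 0.06, 0.16 and 0.22 within clusters. The differences between the diets were not tested.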

How the results depend on the processing

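No paired analysis was possible because each diet has 1 library. The share of Aldh1a3 cells was 1.47% in HFD and 0.0174% in CD with at least 2 Aldh1a3 UMIs, and 2.29% and 0.0185% after thinning. The counts of genes past 1.5-fold depended on most settings. For genes higher, 33 became 60 with 1 nearest cell, 15 with cells nearest on UMIs outside hormone and mitochondrial genes, 12 within clusters, 21 with TMM factors, 21 with median-of-ratios factors and 61 with every cell counted alike. The pairs of higher and lower genes, 33 and 12 as reported, were 129 and 75 at 20 expected UMIs, 4 and 3 at 200, 1600 and 940 with no filter, 186 and 73 at 1.3-fold and 2 and 5 at 2-fold. Lower genes were 4 with doublet calls removed. The median of the dedifferentiation list, 0.46, was 0.14 within clusters, 0.26 with no filter and 0.25 with doublet calls removed. Settings added after seeing the data left out clusters 5, 9, 10 and 11 (4 lower genes; dedifferentiation median 0.21) or cluster 7 (17 higher), kept clusters 1 to 4 only (13 higher, 7 lower; median 0.093), or kept the Aldh1a3 cells up to their median UMIs (5 lower) or above it (15 higher, 6 lower). The causes of these changes were not tested.

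Of the 24 ranked genes, 19 kept their sign in 20 settings. These settings reuse the library on which the genes were ranked, and some, such as TMM factors, could barely move a ratio. Nupr1 was -0.16 with at least 2 Aldh1a3 UMIs. Stmn1 was -0.073 within clusters, -0.21 without cluster 7 and -0.049 in clusters 1 to 4. Pyy was -0.20 within clusters and -0.39 with doublet calls removed. Hbb-bs was 0.34 with 1 nearest cell and 0.23 in the cells up to the median UMIs, and Apoe 0.077 with 1 nearest cell and 0.57 with doublet calls removed. Rgs5, 1.98 as reported, was -0.68 with at least 2 Aldh1a3 UMIs, -1.15 with doublet calls removed, -1.10 without clusters 5, 9, 10 and 11 and -2.13 above the median UMIs. The median of the cell cycle list was -0.059 within clusters, -0.12 without cluster 7 and -0.19 in clusters 1 to 4. The beta identity median lay below 0 in each setting run. At 1 or 2 Aldh1a3 UMIs per cell, a cell with 0 UMIs is not shown to lack the transcript, so the matched cells may hold Aldh1a3 cells that were missed.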
